A study of Mus musculus with 69 samples.

Results

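The genes described here were 10 subunits of the vacuolar proton pump (V-ATPase), taken by gene symbol from the 24411 gene rows of a count table of mouse kidney libraries. They form 5 pairs of paralogs. In each pair 1 isoform was listed as that of intercalated cells and the other as the ubiquitous one. The pairs were Atp6v1b1 and Atp6v1b2 for subunit B, Atp6v1c2 and Atp6v1c1 for subunit C, Atp6v1g3 and Atp6v1g1 for subunit G, Atp6v0a4 and Atp6v0a1 for subunit a, and Atp6v0d2 and Atp6v0d1 for subunit d, with the intercalated-cell isoform first in each. These names serve as labels only. Atp6v0a4 made up 84.3% of its pair per exon length in whole-kidney RNA of controls, and it did not differ between the 2 pulldowns. The choice went by gene symbol and set no threshold on a measured value, but earlier results of these data were known. All 10 genes were among the 21175 that were tested.

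The V-ATPase is a rotary pump that moves protons out of the cytosol at the cost of ATP. Its V1 sector (subunits A to H) lies in the cytosol and hydrolyzes ATP, and its V0 sector (subunits a, c, d and e) lies in the membrane and carries the protons. In every cell it acidifies endosomes, lysosomes and the Golgi. Intercalated cells of the collecting duct and connecting tubule also place it in the plasma membrane and so secrete acid or bicarbonate, and loss of human ATP6V1B1 or ATP6V0A4 causes distal renal tubular acidosis.

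All 69 libraries came from kidneys of mice that carried 1 Rosa26 allele in which Cre removes a stop cassette in front of Uprt. Uprt (uracil phosphoribosyltransferase) lets a cell build the uracil analog 4-thiouracil (4-TU) into new RNA, and every mouse received 430 mg/kg of it 4 hours before dissection, controls included. The thiol-tagged RNA was biotinylated and bound to streptavidin in 48 pulldown libraries, while 21 libraries were made from whole-kidney RNA of control mice with no such selection (called untagged in the labels, although these mice had received 4-TU as well). One driver was Hoxb7Cre, active in the collecting duct and thus in principal as well as intercalated cells. The other was Atp6v1b1Cre, which the labels spell Atp6b1v1Cre, active in intercalated cells and in cells that share intercalated and principal cell features. The driver takes its name from a gene of the set, and whether the Cre allele added reads to Atp6v1b1 was not tested. Control mice were untreated, mice of the ischemia group (iAKI) had both renal arteries clamped for 10 minutes and were studied after 24 hours, and mice of the volume depletion group (vAKI) had restricted food and water for 72 hours. Controls gave 10 Hoxb7Cre pulldowns, 11 Atp6v1b1Cre pulldowns and all 21 total libraries, from 20 female and 22 male samples. Among the pulldowns of males aged 5.5 months, the Hoxb7Cre line gave 4 control, 4 ischemia and 3 volume depletion libraries, and the Atp6v1b1Cre line gave 4, 3 and 4. Injured females and males were all 5.5 months old. In the controls, the 3-month mice of the Hoxb7Cre pulldowns were female and those of the Atp6v1b1Cre pulldowns were male, so in these groups age and sex are partly joined.

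Each library held between 12618062 and 30305464 gene counts. Levels are given in CPM, which scale the count of a gene to the effective size of its library, on 1 common scale for all 69 libraries. Differences are log2 fold changes from edgeR's quasi-likelihood test, each with its standard error (SE) and a p-value adjusted by the Benjamini-Hochberg method over all 21175 genes, and a gene passed at an adjusted p under 0.05. The labels do not say which pulldown and total libraries share a mouse, and all libraries entered as independent samples. Taken in order of library number, however, the 21 control pulldowns and the 21 total libraries matched one by one in genotype, sex and age, and a fit with these 21 pairs as a block kept all 21 calls of the 10 genes between the pools. In whole-kidney or pulldown RNA, fewer cells of a type and less RNA per cell cannot be told apart. Pulldowns select RNA made during the 4 hours of label, whereas total RNA also holds older RNA. The authors name RNA turnover and a possible excess of uracil-rich RNA as limits of the method. Their part in the differences between pulldown and total RNA was not tested. In males aged 5.5 months the summed CPM of 12 intercalated markers was higher in the pulldowns than in total RNA. It ran from 762 to 837 in total RNA, from 1309 to 1922 in their control Hoxb7Cre pulldowns and from 1524 to 2059.8 in their control Atp6v1b1Cre pulldowns. Markers of other segments were still present. Proximal tubule markers summed to 14115 to 19157 CPM in total RNA, to 1858 to 3269 in the Hoxb7Cre and to 1888 to 3818 in the Atp6v1b1Cre control pulldowns. In females the intercalated sums of the control Hoxb7Cre pulldowns reached lower, as given below. Some of the 12 markers were lower in a pulldown than in total RNA. Of 5 red cell genes, the 4 globin genes were at 0 counts in all 69 libraries whereas Alas2 had counts in each, so the globin rows give no measure of red cell RNA.

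In the GENCODE annotation of GRCm38, the build named mm10 in the labels, the intercalated isoforms lie on chromosome 6 (Atp6v1b1, chr6:83742990-83758855, plus strand, and Atp6v0a4, chr6:38048483-38124586, minus strand), chromosome 4 (Atp6v0d2, chr4:19876841-19922605, minus), chromosome 1 (Atp6v1g3, chr1:138273738-138289462, plus) and chromosome 12 (Atp6v1c2, chr12:17284721-17329359, minus). The ubiquitous isoforms lie on chromosome 8 (Atp6v1b2, chr8:69088646-69113711, plus, and Atp6v0d1, chr8:105524465-105566047, minus), chromosome 4 (Atp6v1g1, chr4:63544772-63550750, plus), chromosome 15 (Atp6v1c1, chr15:38661933-38692446, plus) and chromosome 11 (Atp6v0a1, chr11:101009452-101063719, plus). Each locus is a protein-coding gene, with 3 exon blocks in Atp6v1g3 and Atp6v1g1 and 23 in Atp6v0a4 and Atp6v0a1. Paralogs of a pair could be counted apart, since the longest run of bases that their annotated transcripts shared was 11 (subunit G) to 26 (subunit B). Counts of Atp6v1g1 carry more doubt, because 208 of its 1086 windows of 50 bases (19.2%) also occur in 2 pseudogenes, Gm13453 and Gm12344. Atp6v0a4 shares 259 exon bases (7.26%) with D630045J12Rik on the same strand and 62 (1.74%) with Tmem213 on the other.

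Promoter windows of 250 bases before to 50 after the start were at hand for 6 of the 10 genes (Atp6v1b1, Atp6v1g3, Atp6v1c2, Atp6v0a4, Atp6v0d1 and Atp6v0a1; RefSeq, GRCm38.p6). They were searched on both strands for GTAAACA, the core letters of a forkhead motif, the class of factor to which Foxi1, which specifies intercalated cells, belongs. Of 32851 such windows 1199 (3.65%) hold it, and of the 6 windows 1 did. The 60 bases around that match lie at chr6:83742894-83742953, plus strand, and the capitals mark the match, which reads on the strand opposite to the gene.

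Atp6v1b1 promoter: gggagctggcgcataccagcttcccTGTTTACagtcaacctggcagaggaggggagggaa

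The match began 98 bases before the start of the RefSeq window, which differs from the GENCODE start of the gene given above. The E-box letters CACGTG, a palindrome, were found in 2349 of the 32851 windows (7.15%) and in 1 of the 6, that of Atp6v0d1. These matches describe letters only, and no binding was measured.

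In control kidneys, the log2 ratio of the intercalated to the ubiquitous isoform was higher in both pulldowns than in total RNA, without overlap, for 3 of the 5 pairs (subunits d, C and G). The ratio of subunit a was lower in both. Among mice of the older age, that of subunit B separated from total RNA only in females of the Hoxb7Cre pulldown, where it was lower. In males its mean was higher in both pulldowns, and in Atp6v1b1Cre females it was lower, each with overlap. Atp6v0d2 and Atp6v1c2 were higher in both pulldowns than in total RNA. With the sexes pooled, Atp6v1g3 was higher than in total RNA in the Atp6v1b1Cre pulldown and slightly lower in the Hoxb7Cre pulldown. Compared with total RNA, both pulldowns held less of Atp6v1b1 and Atp6v0a4, the isoforms whose loss causes acidosis, and less of each ubiquitous isoform but Atp6v0a1. These differences set new RNA against total RNA, and the part of RNA turnover in them was not tested. In the edgeR fit by sex with libraries as independent samples, the Hoxb7Cre differences of Atp6v1b1, Atp6v1g3 and Atp6v0a4 passed in females and not in males. Between Hoxb7Cre pulldown and total RNA 9 of the 10 genes passed, where 66.6% of all genes tested did (35.6% higher and 31.1% lower), and between Atp6v1b1Cre pulldown and total RNA 9 of 10 passed, where 63.8% did (34.4% higher and 29.4% lower). Counted by overlap, 3 ubiquitous isoforms were below total RNA in every Hoxb7Cre library, as were 15.5% of all genes. In the Atp6v1b1Cre pulldown the same 3 were, where 14.8% of all genes were, and 2 intercalated isoforms were above it, where 9.22% were.

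Subunit d joins the central stalk to the proton-carrying ring in V0. Its intercalated isoform, Atp6v0d2, lay between 29.4 and 54.3 CPM in the 21 total libraries (median 41.1). It lay between 50.004 and 119 CPM in the 10 Hoxb7Cre control pulldowns (median 89.7) and between 84.2 and 188 CPM in the 11 Atp6v1b1Cre control pulldowns (median 124). Total and Atp6v1b1Cre libraries did not overlap, and Hoxb7Cre libraries met the total ones only at the edge. The log2 difference from total RNA was 1.13 (SE 0.109, adjusted p = 9.19e-13) for Hoxb7Cre and 1.71 (SE 0.106, adjusted p = 4.08e-19) for Atp6v1b1Cre, the latter above 98.7% of all genes tested. Atp6v0d1, the ubiquitous isoform, went the other way. It ran from 120 to 181 CPM (median 150) in total RNA, from 72.3 to 92.6 (median 81.03) in the Hoxb7Cre pulldowns and from 71.2 to 98.96 (median 84.3) in the Atp6v1b1Cre pulldowns, with no overlap between total RNA and either pulldown. Its log2 differences from total RNA were -0.84 (SE 0.063, adjusted p = 3.77e-16) and -0.81 (adjusted p = 3.19e-16).

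Subunit C clamps the stator stalks of V1 and takes part in the assembly of V1 on V0. Atp6v1c2 ran from 23.97 to 43.9 CPM (median 34.1) in total RNA, from 36.5 to 88.1 (median 60.1) in the Hoxb7Cre pulldowns and from 63.4 to 108.1 (median 94.1) in the Atp6v1b1Cre pulldowns. As for Atp6v0d2, total RNA and the Atp6v1b1Cre pulldown did not overlap. Its log2 difference from total RNA was 0.88 (SE 0.1, adjusted p = 1.27e-10) for Hoxb7Cre and 1.49 (SE 0.097, adjusted p = 2.11e-18) for Atp6v1b1Cre. Atp6v1c1, the ubiquitous isoform, had medians of 143 CPM in total RNA (106.5 to 188), 91.2 in the Hoxb7Cre pulldowns (80.4 to 111) and 104.2 in the Atp6v1b1Cre pulldowns (80.6 to 132). The groups overlapped, and both differences passed, at -0.55 (SE 0.075, adjusted p = 9.17e-09) and -0.43 (adjusted p = 9.05e-07).

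Subunit G is part of the same stator stalks. Atp6v1g3 had a median of 62.5 CPM in total RNA (35.5 to 105.9), 50.1 in the Hoxb7Cre pulldowns (43.9 to 61.3) and 78.2 in the Atp6v1b1Cre pulldowns (61.1 to 127). Total RNA overlapped both pulldowns, and the pulldowns met each other at the edge. The log2 difference from total RNA was -0.38 (SE 0.115, adjusted p = 0.00375) for Hoxb7Cre and 0.47 (SE 0.108, adjusted p = 0.000206) for Atp6v1b1Cre. By sex in edgeR, the Hoxb7Cre difference was -0.06 in males (adjusted p = 0.777) and -0.63 in females (adjusted p = 0.000222). Atp6v1g1 had the largest difference from total RNA of the 10, in both pulldowns but for the higher Atp6v0d2 in the Atp6v1b1Cre pulldown. Its medians were 166 CPM in total RNA (132 to 228), 48.4 in the Hoxb7Cre pulldowns (41.0 to 61.3) and 55.02 in the Atp6v1b1Cre pulldowns (41.8 to 62.2), so that each total library was above each pulldown library. The log2 differences were -1.71 (SE 0.072, adjusted p = 2.16e-25) and -1.64 (adjusted p = 1.71e-25).

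Subunit B sits in the ATP-hydrolyzing head of V1. Atp6v1b1 had a median of 108.9 CPM in total RNA (75.1 to 147), 47.9 in the Hoxb7Cre pulldowns (30.8 to 103.4) and 79.8 in the Atp6v1b1Cre pulldowns (43.3 to 121). The ranges overlapped, and the pulldown medians were the lower ones. The log2 difference from total RNA was -1.01 (SE 0.162, adjusted p = 4.1e-07) for Hoxb7Cre and -0.51 (SE 0.153, adjusted p = 0.00355) for Atp6v1b1Cre. Atp6v1b2, the ubiquitous B isoform, had medians of 541 CPM in total RNA (454 to 659), 323 in the Hoxb7Cre (290 to 365) and 332 in the Atp6v1b1Cre pulldowns (288 to 423). It too separated total RNA from both pulldowns, with log2 differences of -0.70 (SE 0.063, adjusted p = 1.39e-13) and -0.65 (adjusted p = 3.48e-13).

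Subunit a forms the channels through which protons cross the membrane. Atp6v0a4 had a median of 477 CPM in total RNA (396 to 682), 348 in the Hoxb7Cre pulldowns (178 to 678) and 387 in the Atp6v1b1Cre pulldowns (258 to 552). The groups overlapped widely. Its log2 difference from total RNA was -0.41 (SE 0.136, adjusted p = 0.00758) for Hoxb7Cre and -0.29 (SE 0.131, adjusted p = 0.0494) for Atp6v1b1Cre, a call that did not hold in 28 of the 42 fits that each left out 1 library (adjusted p up to 0.104) and had an adjusted p of 0.00556 with the 21 pairs as a block. By sex in edgeR, the Hoxb7Cre difference of Atp6v0a4 was -0.2 in males (adjusted p = 0.42) and -0.57 in females (adjusted p = 0.00563). With the 21 pairs as a block it was -0.345 in males (adjusted p = 0.0377) and -0.65 in females (adjusted p = 1.3e-05). Atp6v0a1 was the only 1 of the 10 to pass in neither comparison. Its medians were 99.4 CPM in total RNA (88.7 to 124), 107.4 in the Hoxb7Cre pulldowns (74.7 to 138) and 111 in the Atp6v1b1Cre pulldowns (72.9 to 142), with differences of 0.12 (adjusted p = 0.203) and 0.15 (adjusted p = 0.0949).

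**Figure D1:**
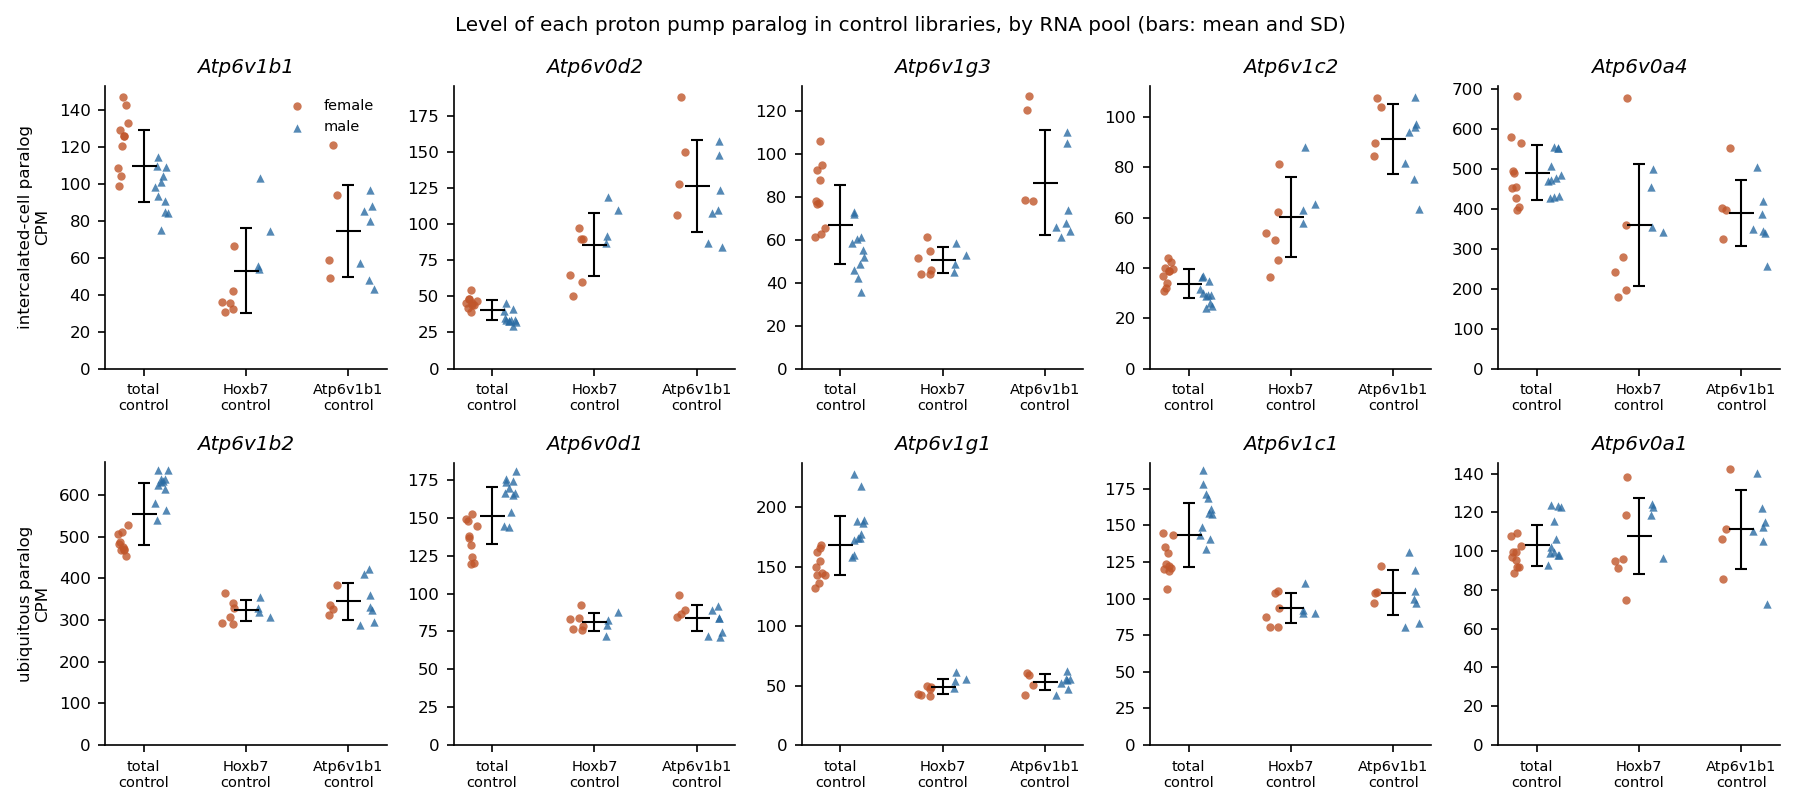
Level of each of the 10 genes (y axis, CPM, a panel a gene with its own scale from 0) in the control libraries of total kidney RNA (n = 21), the Hoxb7Cre pulldown (n = 10) and the Atp6v1b1Cre pulldown (n = 11); circles are females, triangles males, and bars the mean and SD. Atp6v0d2 and Atp6v1c2 lie higher in the pulldowns (median 41.1 CPM in total RNA and 124 in the Atp6v1b1Cre pulldown for Atp6v0d2), while Atp6v1g1 lies lower (166 and 55.02).

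Transcript length moved with every comparison of pulldown with total RNA. Among 14559 genes with at least 10 counts on average, those with up to 1500 exon bases had a median log2 difference of -1.18 in the Hoxb7Cre and -1.11 in the Atp6v1b1Cre pulldown, and those with over 6000 exon bases had medians of 0.77 and 0.74. The 10 genes have between 1135 (Atp6v1g1) and 4047 (Atp6v0a1) exon bases, and the shortest had the lowest difference. For genes of 1500 to 3000 exon bases, to which Atp6v0d2, Atp6v1c2, Atp6v1g3, Atp6v1b2, Atp6v0d1 and Atp6v1c1 belong, the medians were -0.34 and -0.28. The part of length in these results was not tested. Between the 2 pulldowns the same length classes had medians of -0.04 to 0.01.

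The pulldowns were then compared directly. Of the 5 intercalated isoforms 3 were higher in the Atp6v1b1Cre than in the Hoxb7Cre pulldown and none of the 5 ubiquitous ones passed, where 9.93% of all genes passed and 5.73% were higher. Atp6v1g3 was higher by 0.84 on the log2 scale (SE 0.13, adjusted p = 4.12e-06), Atp6v1c2 by 0.62 (SE 0.118, adjusted p = 0.00013) and Atp6v0d2 by 0.58 (SE 0.128, adjusted p = 0.00109). The difference of Atp6v1b1 was of nearly that size, 0.50 (SE 0.176, adjusted p = 0.0618), and it passed in 6 of the 42 fits without 1 library. Atp6v0a4 differed by 0.12 (adjusted p = 0.752). The differences of the 5 ubiquitous isoforms were 0.03 to 0.13. None of the 10 separated the 2 pulldowns fully, as 1.13% of all genes did.

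Within a library the paralogs of a pair can be set against each other, which removes the scaling of that library. It does not remove the trend with transcript length described above. The intercalated isoform has more exon bases in subunits d (2539 against 1629) and G (1887 against 1135) and fewer in subunit C (1653 against 2071). The part of length in the ratios was not tested. The mean log2 ratio of Atp6v0d2 to Atp6v0d1 counts was -1.92 in total RNA, 0.04 in the Hoxb7Cre pulldowns and 0.55 in the Atp6v1b1Cre pulldowns, higher than in total RNA by 1.95 (3.87-fold) and 2.47 (5.54-fold). The ratio of Atp6v1g3 to Atp6v1g1 was higher by 1.41 and 2.04, and that of Atp6v1c2 to Atp6v1c1 by 1.43 and 1.90, and in these 3 pairs total RNA and either pulldown did not overlap. The ratio of Atp6v1b1 to Atp6v1b2 differed from total RNA by -0.37 and 0.08, with overlap, values that pool the sexes. By sex the mean of this ratio moved in opposite directions, without overlap only in Hoxb7Cre females. At 5.5 months its mean in males was -2.78 in total RNA (n = 8), -2.24 in the Hoxb7Cre and -2.40 in the Atp6v1b1Cre pulldown (n = 4 each), higher by 0.54 and 0.38, with overlap. In females of that age it was -1.92 in total RNA, -3.01 in the Hoxb7Cre pulldown, lower by 1.10 without overlap, and -2.16 in the Atp6v1b1Cre pulldown, with overlap. The ratio of Atp6v0a4 to Atp6v0a1 differed by -0.60, with overlap, and by -0.44, without. These ratios rest on genes described above and are given without a test.

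**Figure D2:**
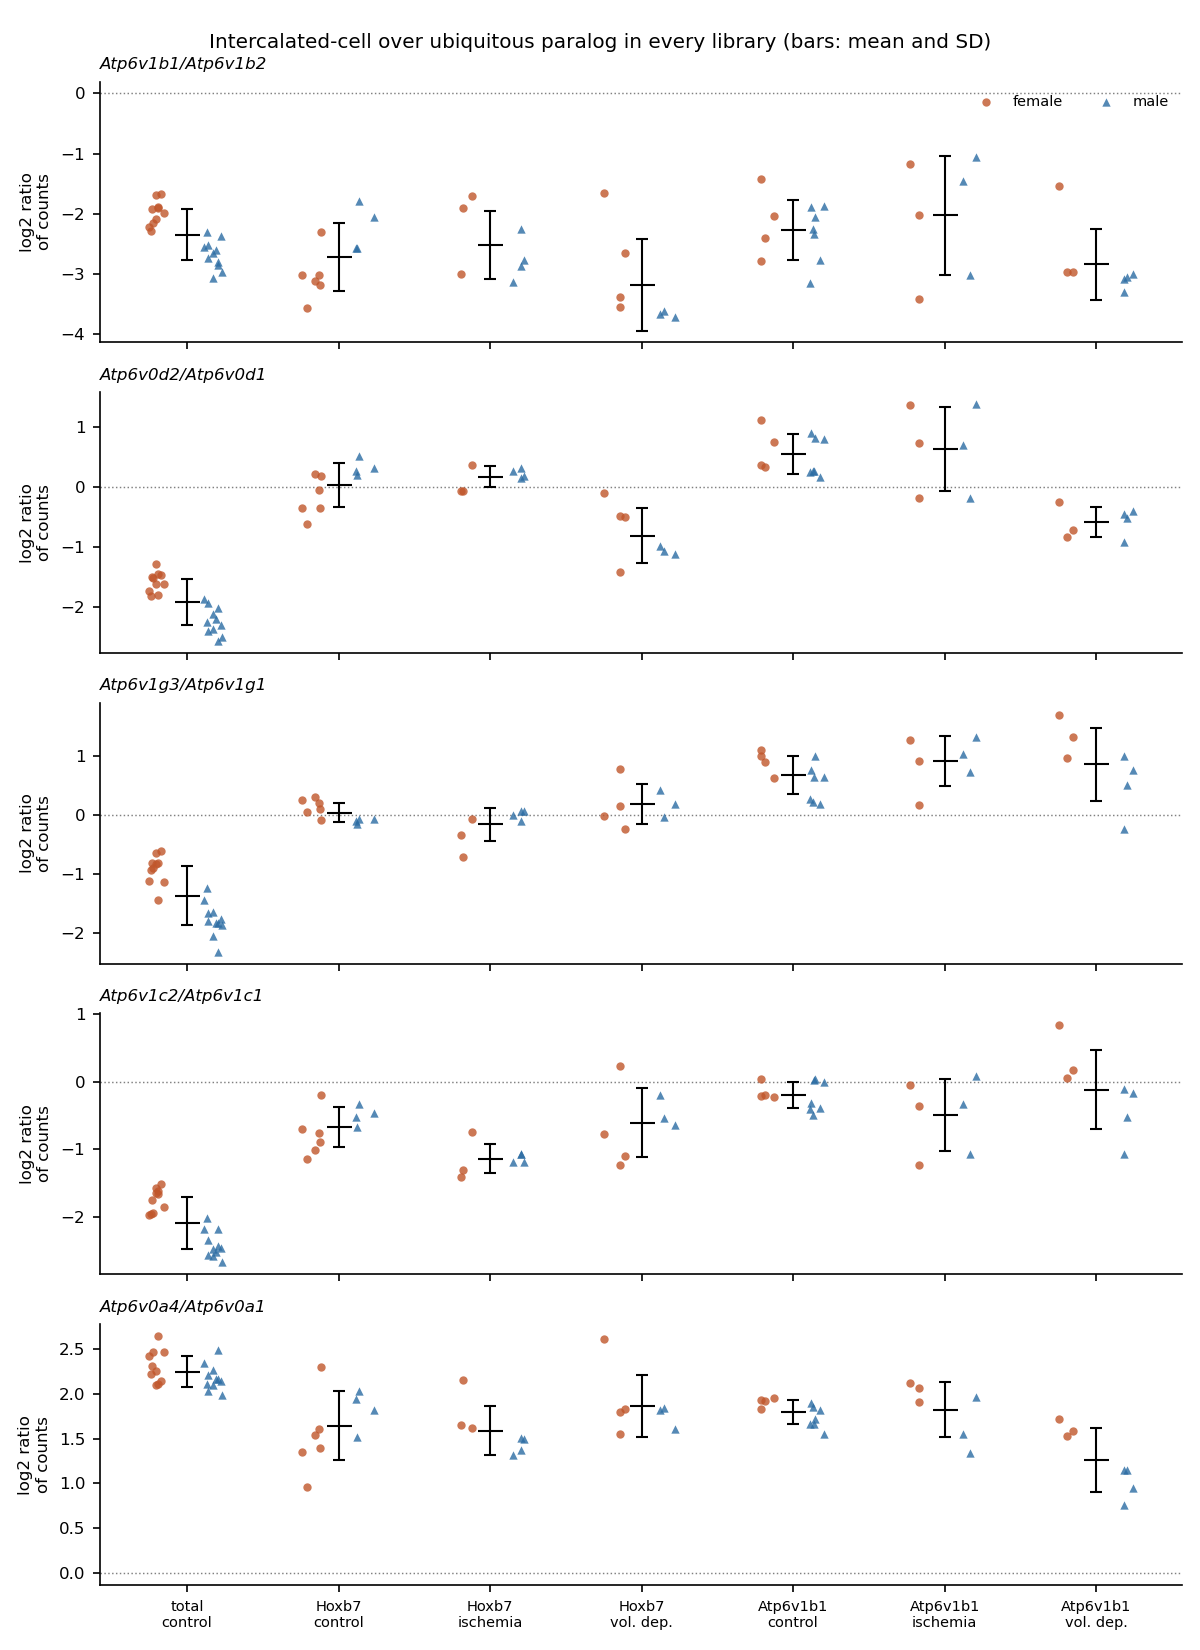
Log2 ratio of the counts of the intercalated to those of the ubiquitous isoform (y axis, a panel a pair with its own scale, dotted line at 0) in each library of 7 groups (x axis), total RNA and the control, ischemia and volume depletion (vol. dep.) pulldowns of both drivers; circles are females, triangles males, and bars the group mean and SD. The subunit d ratio moves from a mean of -1.92 in total RNA to 0.55 in the Atp6v1b1Cre control pulldown, whereas the subunit B ratio goes from -2.34 to -2.27.

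Levels of different genes can be compared only per length, and here they are CPM per kilobase of exon, in controls. In total RNA Atp6v1b2 was at 196, Atp6v1g1 at 148, Atp6v0a4 at 138, Atp6v0d1 at 93.0 and Atp6v1c1 at 69.4. The remaining isoforms were lower, namely Atp6v1g3 at 35.5, Atp6v1b1 at 32.3, Atp6v0a1 at 25.5, Atp6v1c2 at 20.4 and Atp6v0d2 at 15.9. The ranges of mean ± SD of neighbours met among the first 3, only just for Atp6v1b2 and Atp6v1g1, and among the last 5 from Atp6v1g3 down. They did not meet at the steps from Atp6v0a4 to Atp6v0d1, Atp6v1c1 and Atp6v1g3. In the Atp6v1b1Cre pulldown Atp6v1b2 (122) and Atp6v0a4 (109.1) led, with ranges of mean ± SD that met, followed by Atp6v1c2 (55.1), Atp6v0d1 (51.7), Atp6v1c1 (50.3), Atp6v0d2 (49.8), Atp6v1g1 (46.6) and Atp6v1g3 (45.9), each with a range that met the next, and then Atp6v0a1 (27.5) and Atp6v1b1 (21.999). In the Hoxb7Cre pulldown the order ran from Atp6v1b2 (114) and Atp6v0a4 (100.5) down to Atp6v1g3 (26.8), Atp6v0a1 (26.6) and Atp6v1b1 (15.6). Atp6v0a4 was the major isoform of its pair in whole kidney already, with 84.3% ± 1.53 (SD, n = 21) of the pair per length, against 77.7% in the Hoxb7Cre and 79.8% in the Atp6v1b1Cre pulldown. Atp6v0d2 made up 14.8% ± 3.31 of its pair in total RNA, 39.9% ± 5.89 in the Hoxb7Cre and 48.5% ± 5.68 in the Atp6v1b1Cre pulldown. Atp6v1b1 made up 14.4% ± 3.54, 11.8% ± 4.1 and 15.2% ± 4.28 of its pair, or 22.2%, 18.3% and 23.2% when the 1999 bases of its longest coding transcript replaced its 3395 exon bases. Here too the means of the sexes went opposite ways in the Hoxb7Cre pulldown at 5.5 months, from 10.85% in total RNA to 15.2% in males and from 18.1% to 9.69% in females. In males the libraries met those of total RNA at the edge.

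Most other genes of the pump were lower in the pulldowns of controls than in total RNA. The trend with transcript length described above enters these comparisons too, and its part here was not tested. Of 23 further V-ATPase subunits, assembly factors and regulators, 5 were higher and 14 lower in the Hoxb7Cre pulldown than in total RNA (median log2 difference -0.60, against 0.107 over all genes), and 4 were higher and 13 lower in the Atp6v1b1Cre pulldown (median -0.38). These counts, and those of the lists that follow, stand against 35.6% of all genes higher and 31.1% lower in the Hoxb7Cre pulldown, and 34.4% higher and 29.4% lower in the Atp6v1b1Cre pulldown. The largest differences in the Hoxb7Cre pulldown were -2.41 for Atp6v0c, the proton-carrying ring subunit, -2.35 for Atp6v0e2, a small membrane subunit, and -2.28 for Atp6v1f, a stalk subunit. Those in the Atp6v1b1Cre pulldown were -2.42 for Atp6v0e2, -2.16 for Atp6v1f and -2.03 for Rogdi, a member of the complex that assembles the pump. Dmxl1, a large member of that complex, went the other way, by 1.49 and 1.47. Between the 2 pulldowns only Atp6v1e1, a stator stalk subunit, passed, at 0.25 (adjusted p = 0.0114), where 9.93% of all genes did. Of 30 lysosomal genes 4 were higher and 24 lower in the Hoxb7Cre pulldown than in total RNA, and 2 and 23 in the Atp6v1b1Cre pulldown, with medians of -1.77 and -1.74. Of the 12 intercalated markers 7 were higher and 2 lower in the Hoxb7Cre pulldown, 8 and 2 in the Atp6v1b1Cre pulldown, and 6 were higher in the Atp6v1b1Cre than in the Hoxb7Cre pulldown, where 5.73% of all genes were. The markers that were lower than in total RNA in the Hoxb7Cre pulldown were Aqp6, an anion-permeable aquaporin of acid-secreting cells, and Rhbg, an ammonia channel.

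Males and females differed in the controls. Over all 42 control libraries 4 of the 10 genes passed, where 30.3% of all genes did, 16.5% higher in males and 13.8% lower. Atp6v1g3 was lower in males by 0.35 on the log2 scale (adjusted p = 0.00246), and Atp6v1g1, Atp6v1b2 and Atp6v1c1 were higher by 0.23 (adjusted p = 0.000855), 0.20 (adjusted p = 0.00143) and 0.18 (adjusted p = 0.0186). A sex difference for each pool was fitted after the data had been seen. In total RNA 3 of the 5 intercalated isoforms were lower in males and 4 of the 5 ubiquitous ones higher, so that of the 10 genes 7 passed, where 29.4% of all genes did. Atp6v1g3 was lower in males by 0.53 on the log2 scale (adjusted p = 0.000683), Atp6v0d2 by 0.35 (adjusted p = 0.0123) and Atp6v1c2 by 0.31 (adjusted p = 0.0247). Atp6v1b2 was higher in males by 0.36 (adjusted p = 1.1e-05), Atp6v1c1 by 0.34 (adjusted p = 0.000412), Atp6v1g1 by 0.31 (adjusted p = 0.000636) and Atp6v0d1 by 0.29 (adjusted p = 0.000127). Atp6v1b1 differed by -0.34 (adjusted p = 0.076), which at 5.5 months alone became -0.48 (adjusted p = 0.0352). In the Hoxb7Cre pulldown, where 10.3% of all genes passed, Atp6v1b1 was higher in males, by 0.83 (SE 0.213, adjusted p = 0.00936), and Atp6v0d2 differed by 0.45 (adjusted p = 0.0628), or 0.62 at 5.5 months alone (adjusted p = 0.00947). In the Atp6v1b1Cre pulldown, where 4.08% passed in edgeR, none of the 10 did and 1 had an unadjusted p under 0.05.

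At 5.5 months, total RNA held 91.6 ± 9.86 CPM of Atp6v1b1 in males (SD, n = 8) and 129 ± 12.1 in females (n = 8). The Hoxb7Cre pulldowns held 71.8 ± 23.04 in males (n = 4) and 41.3 ± 16.7 in females (n = 4). The step from total RNA to the Hoxb7Cre pulldown differed between the sexes, by 1.17 on the log2 scale (SE 0.258, adjusted p = 0.00369), and by 1.28 at 5.5 months alone (adjusted p = 0.0104). That step was -0.40 in males (adjusted p = 0.0856), where 57.1% of all genes passed, and -1.57 in females (adjusted p = 4.7e-10), where 59.3% did. The step of Atp6v0d2 was 1.56 in males and 0.76 in females (difference 0.80, SE 0.193, adjusted p = 0.00837), and that of Atp6v1c2 1.22 and 0.58 (difference 0.64, SE 0.187, adjusted p = 0.0345). For Atp6v1g3 the difference was 0.57 (adjusted p = 0.119), which passed at 5.5 months alone, at 0.81 (adjusted p = 0.0263), and with the 21 pairs as a block, at 0.74 (adjusted p = 0.00699). Of all genes 5.28% passed this test of the difference. The step to the Atp6v1b1Cre pulldown differed between the sexes for 1 of the 10, Atp6v0d1, at -0.43 (SE 0.099, adjusted p = 0.0134), where 1.76% of all genes passed, but not at 5.5 months alone (adjusted p = 0.128). The principal cell markers moved with it: in mice of 5.5 months their summed CPM in the control Hoxb7Cre pulldowns ran from 2832 to 3675 in males and from 1176 to 2602 in females, and the intercalated markers from 1309 to 1922 and from 799.6 to 1945. Their part in the difference was not tested.

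**Figure D3:**
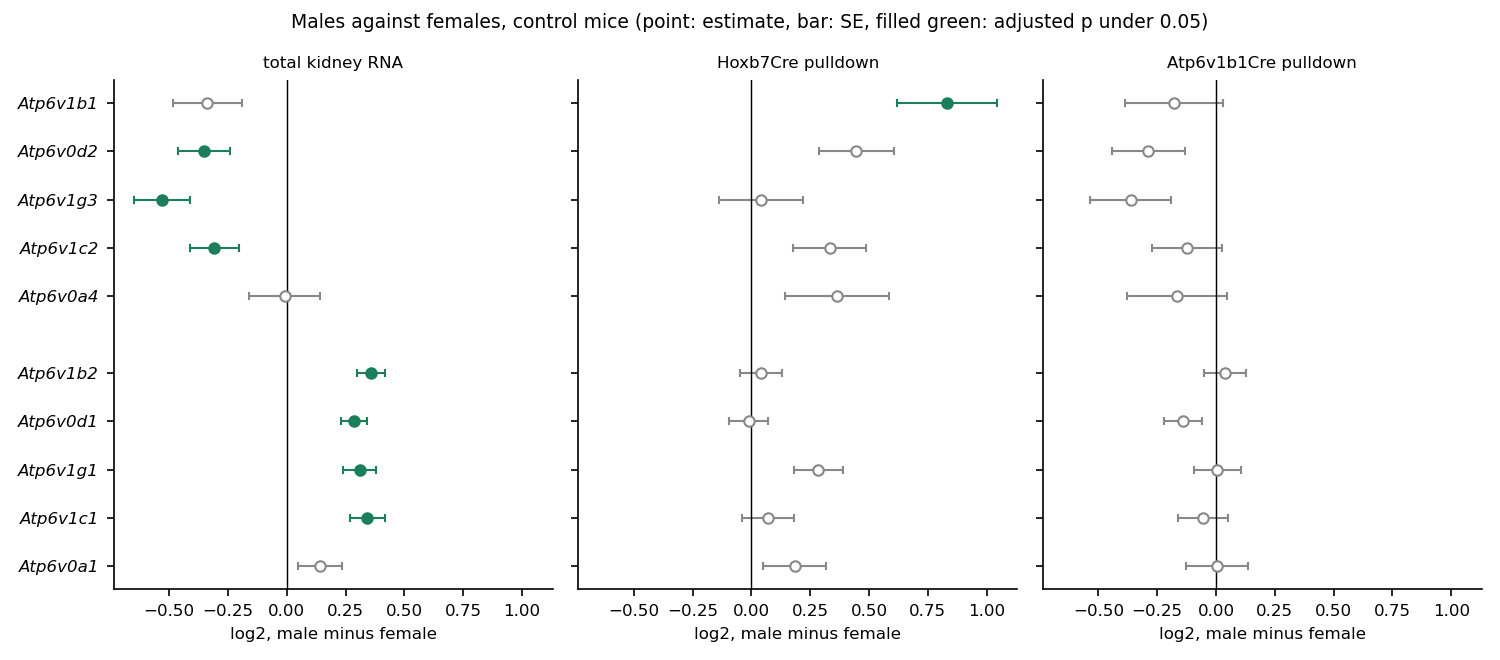
Log2 difference of males from females (x axis) for each of the 10 genes in control total RNA, the Hoxb7Cre pulldown and the Atp6v1b1Cre pulldown (panels); points are estimates, filled where the adjusted p was under 0.05, and bars the SE. For Atp6v1b1 the estimate is -0.34 in total RNA and 0.83 in the Hoxb7Cre pulldown.

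The sexes also bear on the comparison of the pulldowns. In females alone Atp6v1b1, Atp6v0d2, Atp6v1g3 and Atp6v1c2 were higher in the Atp6v1b1Cre than in the Hoxb7Cre pulldown, by 1.00 (adjusted p = 0.00219), 0.93 (adjusted p = 0.000108), 1.02 (adjusted p = 0.000166) and 0.82 (adjusted p = 0.000398), where 4.19% of all genes passed. With the 21 pairs as a block Atp6v1b1 did not pass in females, at 0.86 (adjusted p = 0.0605). In males alone, where 10.4% did, Atp6v1g3 was higher by 0.61 (adjusted p = 0.0175), but it did not pass at 5.5 months alone, at 0.40 (adjusted p = 0.208), or with the 21 pairs as a block, at 0.34 (adjusted p = 0.25), while Atp6v1b1 differed by -0.01, Atp6v0d2 by 0.20 and Atp6v1c2 by 0.37. The difference between the sexes itself passed in edgeR for none of the 10, as it did for 0.17% of all genes, and 3 of the 10 had an unadjusted p under 0.05. At 5.5 months alone it passed for Atp6v0d2, at -1.03 (adjusted p = 0.0497).

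Ischemia and volume depletion were compared with controls in the 22 male pulldowns aged 5.5 months, in which single libraries are listed in the order control, ischemia, volume depletion. Volume depletion lowered 2 intercalated and 3 ubiquitous isoforms in the Hoxb7Cre pulldown, and 3 intercalated isoforms and 1 ubiquitous one in the Atp6v1b1Cre pulldown. Ischemia lowered 1 intercalated isoform and 2 ubiquitous ones in the Hoxb7Cre pulldown and raised 1 intercalated isoform in the Atp6v1b1Cre pulldown.

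In the Hoxb7Cre pulldown Atp6v1b1 was at 55.5, 103.4, 74.3 and 53.8 CPM in controls, at 44.4, 43.03, 68.6 and 49.0 after ischemia, and at 23.6, 22.8 and 25.7 after volume depletion. The volume depletion libraries lay below all others, and the ischemia libraries overlapped the controls. Atp6v0d2 was at 87.2, 119, 110 and 91.8 CPM in controls, at 62.5, 68.1, 72.2 and 64.6 after ischemia, and at 37.3, 43.5 and 57.5 after volume depletion, 3 levels that did not overlap. Volume depletion lowered Atp6v1b1 by a log2 difference of -1.57 (SE 0.338, adjusted p = 0.00088) and Atp6v0d2 by -1.14 (SE 0.266, adjusted p = 0.00183). Neither passed after ischemia, with -0.47 (adjusted p = 0.399) and -0.60 (adjusted p = 0.148). Of the 10 genes 5 passed after volume depletion, all of them lower, where 35.5% of all genes passed and 17.6% were lower.

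Atp6v1c2 was at 62.9, 88.1, 65.5 and 57.8 CPM in controls, at 41.4, 33.9, 38.7 and 39.98 after ischemia, and at 44.7, 38.9 and 57.2 after volume depletion. Both injuries lay below the controls, and the log2 difference was -0.82 (SE 0.213, adjusted p = 0.0245), against -0.54 (adjusted p = 0.0728) after volume depletion. Atp6v0a4 was at 455, 500, 341 and 356 CPM in controls, at 312, 293, 311 and 325 after ischemia, and at 261, 287 and 324 after volume depletion. Both injured groups lay below each control, but the differences of -0.40 and -0.50 (adjusted p = 0.0751 for the latter) did not pass. Atp6v1g3 had differences of -0.34 and -0.10 and did not pass either.

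The ubiquitous isoforms of the Hoxb7Cre pulldown split by injury. Atp6v0d1 was at 72.3, 82.6, 88.1 and 79.5 CPM in controls, at 55.8, 56.2, 57.6 and 56.7 after ischemia, and at 77.9, 94.0 and 114 after volume depletion. The ischemia libraries lay close together and below the rest. The log2 difference was -0.50 (SE 0.121, adjusted p = 0.0159) after ischemia and 0.24 (adjusted p = 0.152) after volume depletion, and the 2 injuries differed from each other by 0.74 (adjusted p = 0.000127). Atp6v1g1 was at 48.2, 61.3, 55.6 and 54.2 CPM in controls, at 38.6, 39.5, 43.9 and 37.6 after ischemia, and at 35.2, 41.4 and 45.6 after volume depletion, below every control in both injuries. Its differences were -0.45 (SE 0.118, adjusted p = 0.0272) and -0.42 (SE 0.129, adjusted p = 0.0126). Atp6v1c1 and Atp6v0a1 passed only after volume depletion, at -0.58 (SE 0.159, adjusted p = 0.00615) and -0.42 (SE 0.144, adjusted p = 0.0265), and Atp6v1b2 passed after neither. After ischemia 3 of the 10 genes passed, where 6.13% of all genes did and 2.79% were lower. Counted by overlap, 4 intercalated and 2 ubiquitous isoforms were below all controls after ischemia, as 7.73% of all genes were, and 4 and 3 after volume depletion, as 19.8% were. The calls for Atp6v1c2 and Atp6v1g1 after ischemia did not hold in 4 and 6 of the 22 fits without 1 library (adjusted p up to 0.101 and 0.0972).

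In the Atp6v1b1Cre pulldown volume depletion again lowered Atp6v1b1 and Atp6v0d2, and with them Atp6v0a4. Atp6v1b1 was at 85.5, 47.8, 88.0 and 57.2 CPM in controls and at 38.4, 37.1, 32.7 and 35.5 after volume depletion. Atp6v0d2 was at 107.8, 109.9, 124 and 86.8 CPM in controls and at 39.3, 45.7, 60.4 and 59.9, and Atp6v0a4 at 506, 387, 338 and 349 in controls and at 247, 249, 132 and 151. In all 3 every volume depletion library lay below every control. The log2 differences were -0.94 (SE 0.3, adjusted p = 0.0381), -1.05 (SE 0.242, adjusted p = 0.00596) and -1.004 (SE 0.199, adjusted p = 0.0021). Among the ubiquitous isoforms Atp6v1g1 passed, at -0.47 (SE 0.119, adjusted p = 0.0108), from 52.1, 55.7, 47.2 and 41.8 CPM to 34.7, 33.5, 35.6 and 36.8. Of the 10 genes 4 passed, where 14.6% of all genes did and 6.47% were lower, and 4 intercalated isoforms and 1 ubiquitous one did not overlap the controls, where 7.41% of all genes lay below without overlap. The 4 were these 3 and Atp6v1c2, which had a difference of -0.62 (adjusted p = 0.0514), while Atp6v1g3 had -0.34. The call for Atp6v1b1 did not hold in 5 of the 22 fits without 1 library (adjusted p up to 0.119), and those for Atp6v0d2, Atp6v0a4 and Atp6v1g1 held in all 22.

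Ischemia in the Atp6v1b1Cre pulldown rested on 3 libraries that differed widely. Atp6v1b1 was at 186, 126 and 39.1 CPM in them, Atp6v0d2 at 219, 138 and 59.9, and Atp6v1g3 at 149, 121 and 71.3, against 61.1, 67.6, 73.99 and 65.8 for Atp6v1g3 in controls. The third of these, replicate 5, lay below the lowest control for Atp6v1b1, Atp6v0d2, Atp6v1c2 and Atp6v0a4, and the other two lay above the highest control for Atp6v1b1, Atp6v0d2 and Atp6v1g3. In the labels the library number of replicate 5 (65) lies in another series than those of replicates 1 and 4 (11 and 14). Whether that bears on its values was not tested. The summed intercalated markers of the 3 libraries ran as widely, from 1164 to 2712 CPM. Atp6v1g3 passed, at 0.75 (SE 0.23, adjusted p = 0.0445), where 8.51% of all genes did and 3.77% rose, but not in 11 of the 22 fits without 1 library (0.53 to 1.02, adjusted p up to 0.28). Atp6v1b1 had a difference of 0.73 (SE 0.317, adjusted p = 0.155), and Atp6v0d2 of 0.37 (adjusted p = 0.415). Without replicate 5 both passed, at 1.17 (adjusted p = 0.00667) and 0.75 (adjusted p = 0.0224), and without replicate 1 the differences were 0.26 (adjusted p = 0.741) and -0.10 (adjusted p = 0.903). None of the 10 separated ischemia from control, as 20.6% of all genes did.

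**Figure D4:**
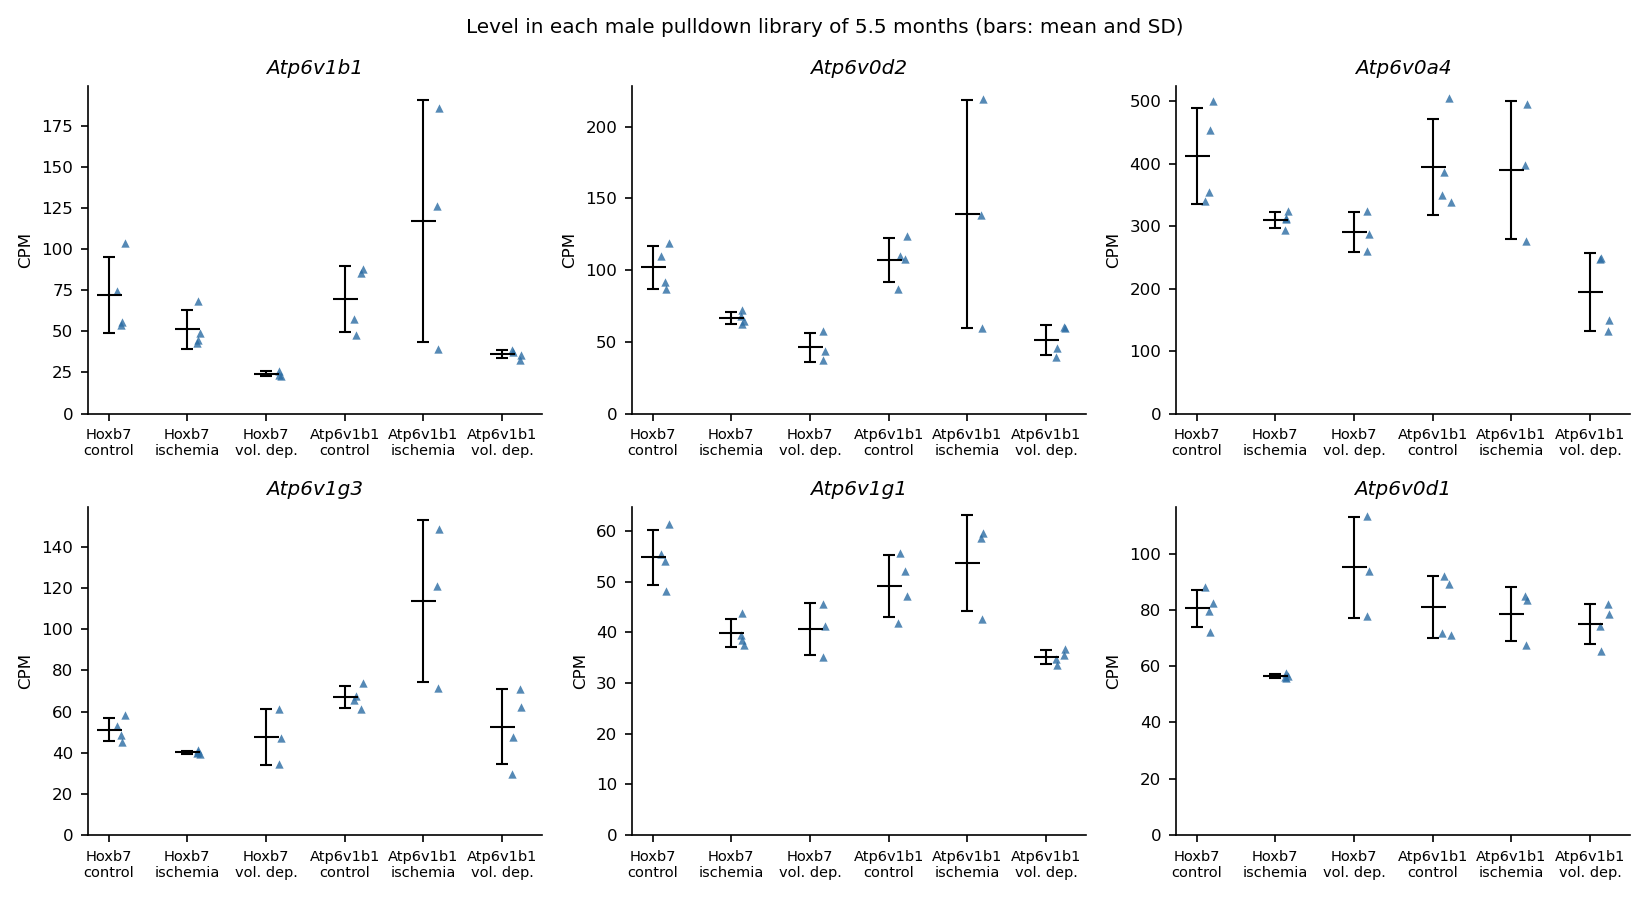
CPM (y axis, from 0) of Atp6v1b1, Atp6v0d2, Atp6v0a4, Atp6v1g3, Atp6v1g1 and Atp6v0d1 in each male pulldown library aged 5.5 months, by driver and treatment (x axis; vol. dep., volume depletion); triangles are libraries and bars the group mean and SD. Atp6v1b1 after volume depletion lies between 22.8 and 25.7 CPM in the Hoxb7Cre and between 32.7 and 38.4 in the Atp6v1b1Cre pulldown, and the 3 ischemia libraries of the Atp6v1b1Cre pulldown spread from 39.1 to 186.

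**Figure D5:**
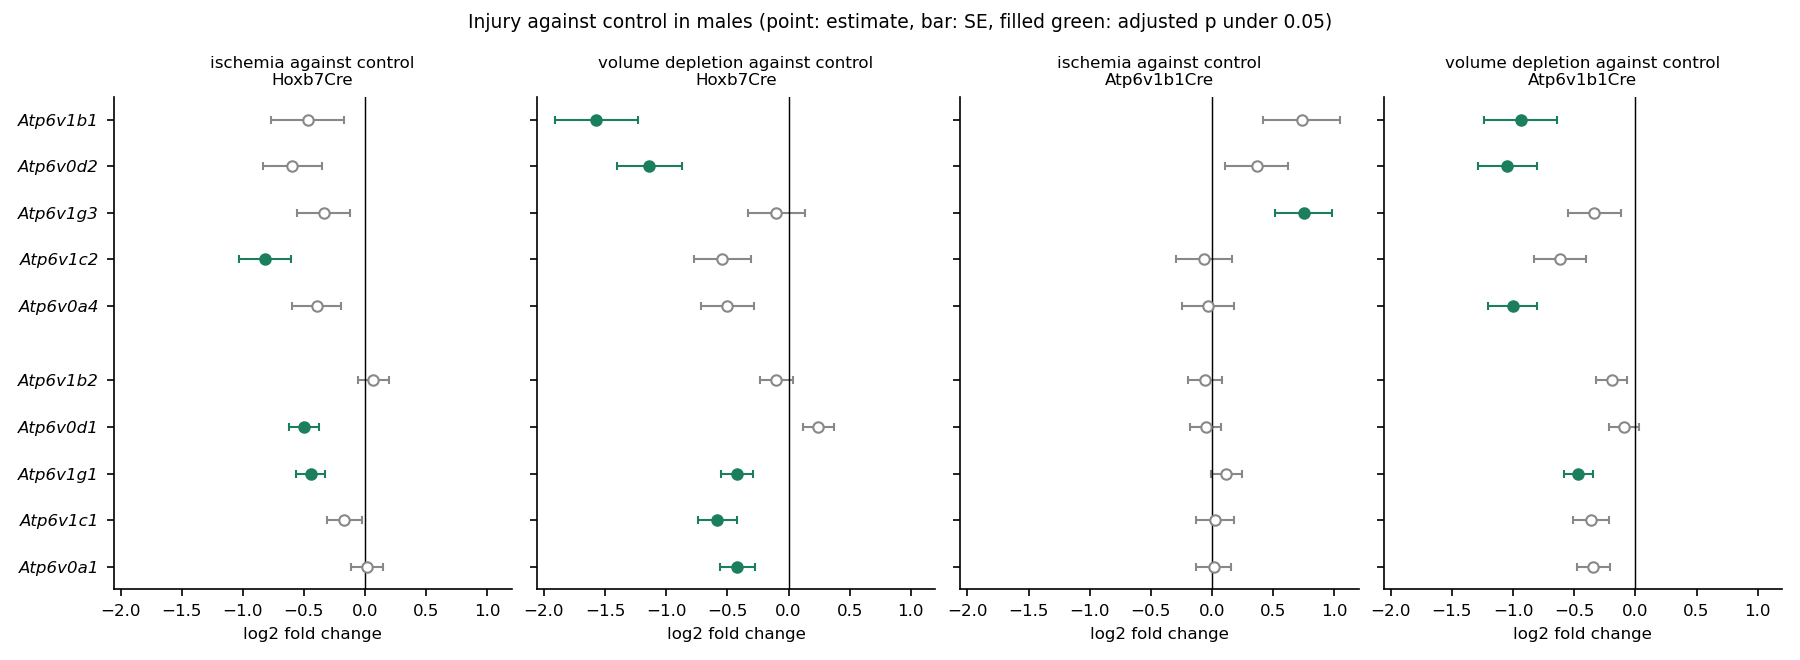
Log2 fold change (x axis) of the 10 genes after ischemia or volume depletion in each pulldown of males aged 5.5 months (4 panels); points are edgeR estimates, filled where the adjusted p was under 0.05, and bars the SE. Atp6v1b1 is at -1.57 and -0.94 after volume depletion, and Atp6v1g3 at 0.75 after ischemia in the Atp6v1b1Cre pulldown.

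Whether the 2 drivers responded differently was tested as the difference of the log2 differences. For ischemia it passed for Atp6v1g3, at 1.09 (SE 0.316, adjusted p = 0.0373), and for Atp6v1g1, at 0.56 (SE 0.173, adjusted p = 0.0486), where 7.79% of all genes passed and 3.67% did in that direction. Those calls did not hold in 9 and 15 of the 22 fits without 1 library. The estimates of Atp6v1b1 (1.21, adjusted p = 0.0889), Atp6v0d2 (0.96, adjusted p = 0.0917) and Atp6v1c2 (0.75, adjusted p = 0.138) were of like size. Without replicate 5 of the ischemia Atp6v1b1Cre pulldown Atp6v1b1 passed at 1.67 (adjusted p = 0.00305) and Atp6v0d2 at 1.37 (adjusted p = 0.00267). The share of all genes that passed in that refit is not given here. For volume depletion none of the 10 passed in edgeR, 0 had an unadjusted p under 0.05 and 0 passed in DESeq2, where 4.2% of all genes passed in edgeR.

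Volume depletion and ischemia were also set against each other. In the Atp6v1b1Cre pulldown 5 of the 10 were lower after volume depletion than after ischemia, where 29.3% of all genes passed and 14.3% were lower. They were Atp6v1b1 at -1.67 (adjusted p = 0.000477), Atp6v0d2 at -1.41 (adjusted p = 0.000301), Atp6v1g3 at -1.09 (adjusted p = 0.00116), Atp6v0a4 at -0.97 (adjusted p = 0.00143) and Atp6v1g1 at -0.58 (adjusted p = 0.00141), and each held in all 22 fits without 1 library. In the Hoxb7Cre pulldown, where 33.3% of all genes passed (16.4% higher and 16.9% lower), Atp6v1b1 was lower at -1.10 (adjusted p = 0.013), Atp6v1c1 at -0.41 (adjusted p = 0.0492) and Atp6v0a1 at -0.43 (adjusted p = 0.0238), next to the higher Atp6v0d1. These 3 calls did not hold in 1, 17 and 3 of the 22 fits.

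Within the pairs, volume depletion in males shifted subunits B and d toward the ubiquitous isoform in the Hoxb7Cre pulldown. The log2 ratio moved by -1.42 for subunit B, by -1.38 for subunit d and by 0.29 for subunit G, each without overlap with the controls, and by 0.03 for subunit C and -0.07 for subunit a. Per length, Atp6v1b1 went from 15.2% to 6.17% of its pair and Atp6v0d2 from 44.7% to 23.6%. Ratios without overlap in the Atp6v1b1Cre pulldown were those of subunit d, which moved by -0.97, and subunit a, which moved by -0.68, so that Atp6v0d2 went from 45.9% to 30.3% of its pair and Atp6v0a4 from 78.4% to 69.4%. The subunit B ratio moved by -0.70, with overlap. After ischemia the ratios of subunits C and a moved by -0.64 and -0.40 without overlap in the Hoxb7Cre pulldown, and that of subunit G was higher without overlap in the Atp6v1b1Cre pulldown, by 0.58. The subunit d ratio moved by -0.09 after ischemia in the Hoxb7Cre pulldown. All these values are of males. In Hoxb7Cre females of 5.5 months the mean subunit B ratio was -3.01 (SD 0.525, n = 4) in controls and -2.81 (SD 0.862, n = 4) after volume depletion.

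Of the 23 other genes of the pump, ischemia lowered 2 in the Hoxb7Cre pulldown, Atp6v0e, a small membrane subunit, at -0.62 (adjusted p = 0.0209) and Atp6v1e1 at -0.46 (adjusted p = 0.0304), where 2.79% of all genes were lower, and in edgeR none passed in the Atp6v1b1Cre pulldown, where 8.51% did. Volume depletion lowered 3 and raised 1 in the Hoxb7Cre pulldown, with Ncoa7, a regulator that binds the pump, at -0.76 (adjusted p = 0.00126), Dmxl2, a part of the assembly complex, at -0.70 (adjusted p = 0.0339) and Rogdi at 0.61 (adjusted p = 0.00811), a smaller share than the 35.5% of all genes that passed. In the Atp6v1b1Cre pulldown, where 6.47% of all genes were lower, it lowered 4, among them Ncoa7 at -0.65 (adjusted p = 0.00716), Atp6v1a, the catalytic subunit, at -0.58 (adjusted p = 0.039) and Tcirg1, the a3 subunit, at -0.46 (adjusted p = 0.0367). The driver difference of ischemia passed for 5 of the 23, all higher in the Atp6v1b1Cre pulldown, led by Atp6v0e at 1.04 (adjusted p = 0.00939), where 3.67% of all genes were, and that of volume depletion for none. Of the 30 lysosomal genes 2 rose and 0 fell after ischemia and 5 rose and 6 fell after volume depletion in the Hoxb7Cre pulldown, and 3 rose and 3 fell, and 0 rose and 3 fell, in the Atp6v1b1Cre pulldown. Over all genes, 6.13% and 35.5% passed in the Hoxb7Cre and 8.51% and 14.6% in the Atp6v1b1Cre pulldown after ischemia and volume depletion, so the count after volume depletion in the Hoxb7Cre pulldown was near that of all genes.

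Markers of the cell types moved in the same males. Of the 12 intercalated markers 7 fell after volume depletion in the Hoxb7Cre pulldown and 5 in the Atp6v1b1Cre pulldown, where 17.6% and 6.47% of all genes were lower. Foxi1 fell by 1.85 and 1.01 on the log2 scale, Rhbg by 1.16 and 1.17, and Insrr, an alkali-sensing receptor of bicarbonate-secreting cells, by 2.84 and 2.01. After ischemia 3 fell in the Hoxb7Cre pulldown, where 2.79% of all genes did, and 0 passed in edgeR in the Atp6v1b1Cre pulldown. Summed, the 12 markers ran in the Hoxb7Cre pulldown from 1309 to 1922 CPM in controls, from 1148 to 1279 after ischemia and from 850.01 to 1348 after volume depletion, and in the Atp6v1b1Cre pulldown from 1524 to 2059.8, from 1164 to 2712 and from 919 to 1478. Principal cell markers summed to 2832 to 3675 CPM in the Hoxb7Cre controls, to 1098 to 1348.5 after ischemia and to 1225 to 1316 after volume depletion, and thick ascending limb markers ran from 1387 to 2393 in controls, from 1833 to 2078 after ischemia and from 791 to 875 after volume depletion. The part of these shifts in the changes of the pump genes was not tested.

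Females differed from males in the Hoxb7Cre pulldown, by a test added after the data had been seen. In 3 female Hoxb7Cre ischemia libraries Atp6v1b1 was at 42.98, 89.1 and 120 CPM, and in 4 after volume depletion at 116, 34.7, 64.2 and 29.4. These spanned the 4 control females of that age, which were at 66.2, 30.8, 32.1 and 36.3. The volume depletion response of Atp6v1b1 was lower in males than in females by 2.13 on the log2 scale (SE 0.661, adjusted p = 0.0262), where 16% of all genes passed. The ischemia responses of Atp6v1g1 and Atp6v0d1 differed by -0.85 (SE 0.25, adjusted p = 0.0273) and -0.65 (SE 0.201, adjusted p = 0.0335), where 10.5% passed. In females of that age the thick ascending limb markers of the Hoxb7Cre pulldowns summed to 981 to 2408 CPM in controls and to 3143 to 4254 after ischemia, whose part was not tested. For the Atp6v1b1Cre line 0 of the 21175 genes passed this edgeR test of the difference for either injury, with 676 and 1756 genes at an unadjusted p under 0.05 for ischemia and volume depletion. In females alone none of the 10 passed after either injury in the Hoxb7Cre pulldown or after ischemia in the Atp6v1b1Cre pulldown. The share of all genes that passed in females alone is not given here, so these counts cannot be set against it. After volume depletion in the Atp6v1b1Cre pulldown Atp6v0d2 (-1.34, adjusted p = 0.0222) and Atp6v1g1 (-0.80, adjusted p = 0.0209) passed in females as in males, and Atp6v1b1 did not (-0.26, adjusted p = 0.804). In both sexes together, 43 libraries with sex as a covariate, Atp6v1b1 after volume depletion no longer passed in the Hoxb7Cre pulldown, at -0.48 (adjusted p = 0.41), nor in the Atp6v1b1Cre pulldown, at -0.62 (adjusted p = 0.186), and Atp6v0d2, Atp6v0a4 and Atp6v1g1 in the Atp6v1b1Cre pulldown still did.

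All treated Hoxb7Cre pulldowns belong to 1 series of library numbers in the labels, together with 2 of the 4 male Hoxb7Cre controls. With that series as a covariate all 49 calls made over the 12 comparisons were kept.

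Across the 48 pulldowns, after the mean of each group was removed, the 10 genes varied together to different degrees, across the 2 kinds as well as within them. The correlation (Pearson r, log2 CPM, a description across libraries that share their scaling) was 0.88 for Atp6v1b1 with Atp6v0d2, 0.81 with Atp6v1c2, 0.68 with Atp6v0a4 and 0.56 with Atp6v1g3. Atp6v0d2 had 0.78 with both Atp6v1g3 and Atp6v1c2. With ubiquitous isoforms, Atp6v1b1 had 0.41 (Atp6v1b2) to 0.62 (Atp6v1g1), Atp6v0d2 had 0.76 with Atp6v1g1 and 0.66 with Atp6v0d1, and Atp6v1g3 had 0.66 with Atp6v0d1. Atp6v0a4 stood closer to its own paralog Atp6v0a1 (0.83) than to Atp6v1g3 (0.10), and the ubiquitous Atp6v0d1 and Atp6v1g1 had 0.81.

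The genes most like each isoform over all 69 libraries were taken as the 3 with the highest r among 15101 genes. For Atp6v1b1 they were Rhbg (0.88), Prps2 (0.86) and Aqp6 (0.85). For Atp6v0d2 they were Rragd (0.89), Gca (0.88) and Hepacam2 (0.87), and for Atp6v1c2 Hepacam2 (0.95), Oxgr1 (0.88), the oxoglutarate receptor of bicarbonate-secreting cells, and Syn2 (0.87). Atp6v1g3 had lower values, with Serpinb1a (0.8), Cyp2s1 (0.76) and Fopnl (0.72). Atp6v0a4 was most like Rab5b (0.9), an endosomal GTPase, Nf2 and Gtf2i, none of them on the intercalated list. The highest value was 0.98, for the ubiquitous Atp6v1g1 with Apool, Rer1 and Cycs. The top values of the ubiquitous Atp6v1b2, Atp6v0d1 and Atp6v1c1 were 0.95, equal to that of Atp6v1c2. That of the ubiquitous Atp6v0a1 was 0.88, with Sec31a. All these values span pulldown and total libraries, and the part of the differences between them was not tested.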

How the data were processed

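Per the labels, the authors called bases and trimmed with CASAVA 1.8.2 and Trimmomatic 0.36, aligned reads to mm10 with STAR 2.5.3a and counted reads per gene with HTSeq 0.6.1p2, and they deposited raw counts, 1 column a library for 69 libraries. All columns were used, and no pair of libraries was identical. A gene needed a sum of 2 counts across all libraries, which left 21175, and these were tested with edgeR 4.0.16 (R 4.3.3, limma 3.58.1): TMM scaling, quasi-likelihood fits, Benjamini-Hochberg adjustment over all genes tested, threshold 0.05. One fit took the 42 control libraries with pool and sex as terms, and the other the 22 male pulldowns aged 5.5 months in 6 groups of driver and treatment. The driver difference was the difference of 2 log2 fold changes. Each SE was the size of the log2 fold change divided by the square root of its quasi-likelihood F statistic. The scripts were tested on simulated data first. The counts set the precision: 12618062 to 30305464 a library, so that every one of the 10 genes had over 20 CPM in each control library.

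The 10 genes and the lists (23 other V-ATPase genes, 30 lysosomal genes, and markers of intercalated, principal, proximal tubule, thick ascending limb and red cells) were chosen with earlier results of these data known. By rule all 10 genes were named, with the 3 largest changes that passed among the other V-ATPase genes and the 3 most correlated genes of each. CPM are on the TMM scale of all 69 libraries, ratios used counts plus 0.5, and lengths are unions of GENCODE M21 exons. The labels do not tie pulldowns and totals to mice. In order of library number, 10 of 10 Hoxb7Cre and 11 of 11 Atp6v1b1Cre control pulldowns matched a total library in genotype, sex and age, their deviations from the group means correlated at 0.357 to 0.62 and 0.253 to 0.573, and each pulldown correlated best with its own match. These pairs, taken from that order after the data were seen, were a block in an alternative fit. Replicates are separate labelled samples, and where mice are not identified the p-values measure the spread between those samples. Fits with other scaling, filters, samples, covariates, DESeq2 1.42.0 and each library left out were run as alternatives. The fits by sex and pool and the difference of the responses between the sexes were added after the data were seen.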

Additional observations from a re-analysis of the deposited data

Results flagged for a closer look

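In 100 groups of 4 to 10 libraries, 7 held 1 library far from the others by Dixon's test at its 95% value, of which chance alone would mark about 1 in 20. In replicate 5 of the volume depletion Atp6v1b1Cre pulldown, a female, Atp6v1b1 was at 121 CPM (others 32.7 to 41.9) and Atp6v1c2 at 116 (others 48.8 to 74.9). In replicate 3 of the ischemia Hoxb7Cre pulldown, also a female, Atp6v0a4 was at 525 CPM (others 293 to 371), Atp6v0d1 at 114 (others 55.8 to 75.2) and Atp6v1g1 at 78.4 (others 37.6 to 48.4). Among the males, Atp6v1b2 was at 376 CPM in replicate 5 of the ischemia Hoxb7Cre pulldown (others 324 to 332), and Atp6v1c1 at 111 in replicate 3 of the control Hoxb7Cre pulldown (others 90.1 to 92.0).

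Effects that differed between groups by a test of the difference were those of the drivers after ischemia, at 1.09 for Atp6v1g3 and 0.56 for Atp6v1g1 (Atp6v1b1Cre minus Hoxb7Cre, males). Between the sexes (males minus females, Hoxb7Cre pulldown), the ischemia response differed by -0.65 for Atp6v0d1 and -0.85 for Atp6v1g1 and the volume depletion response by -2.13 for Atp6v1b1. In controls the step from total RNA to the Hoxb7Cre pulldown differed between the sexes by 1.17 for Atp6v1b1, 0.80 for Atp6v0d2 and 0.64 for Atp6v1c2. The step from total RNA to the Atp6v1b1Cre pulldown differed by -0.43 for Atp6v0d1, which at 5.5 months alone was -0.42 (adjusted p = 0.128, edgeR).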

How the results depend on the processing

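Of the 10 genes, 9 (Hoxb7Cre against total), 9 (Atp6v1b1Cre against total), 3 (Atp6v1b1Cre against Hoxb7Cre), 4 (males against females), 3 and 5 (ischemia and volume depletion, Hoxb7Cre), 1 and 4 (ischemia and volume depletion, Atp6v1b1Cre), 2 and 0 (driver difference of ischemia and volume depletion), and 4 and 5 (volume depletion against ischemia, Hoxb7Cre and Atp6v1b1Cre) passed. The number moved by over 1.5 times as follows, and the cause was not tested. The share of all genes that passed in these alternative fits is not given here, so the counts cannot be set against it. Males only gave 1 for Atp6v1b1Cre against Hoxb7Cre. All 69 libraries with sex and group gave 1 for males against females, 0 and 1 for ischemia and volume depletion in Hoxb7Cre, 2 and 7 in Atp6v1b1Cre, 0 and 1 for the driver differences and 9 for volume depletion against ischemia in Atp6v1b1Cre. The 43 libraries of both sexes gave 0 and 0 in Hoxb7Cre, 0 for ischemia in Atp6v1b1Cre, 0 for the driver difference of ischemia, and 1 and 8 for volume depletion against ischemia. Females only gave 0 and 0 in Hoxb7Cre, 0 for ischemia in Atp6v1b1Cre, 0 for its driver difference and 0 for volume depletion against ischemia in Hoxb7Cre. The 25 males of both ages gave 0 for ischemia in Atp6v1b1Cre, 0 for its driver difference and 2 for volume depletion against ischemia in Hoxb7Cre. A covariate for the library number series gave 7 for volume depletion in Atp6v1b1Cre and 4 for the driver difference of ischemia, which DESeq2 size factors brought to 1. Leaving out 1 library gave 1 to 4 and 0 to 3 for ischemia in Hoxb7Cre and Atp6v1b1Cre, 0 to 6 for its driver difference, and 2 to 4 and 5 to 8 for volume depletion against ischemia.

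Replicate numbers did not pair the libraries: same-numbered libraries of 2 groups had mean correlations of -0.372 to 0.127, and the replicate block gave 1 for males against females, 1 and 0 for ischemia in Hoxb7Cre and Atp6v1b1Cre and 0 for its driver difference. It kept 35 of the 49 calls. The block of 21 pairs taken from library number order gave 9, 9 and 3 for the comparisons of control pools and kept 21 of 21 calls.

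In females only the sign turned for Atp6v0d1 (0.16) and Atp6v1g1 (0.41) after ischemia and for Atp6v1b1 (0.56), Atp6v1c1 (0.00) and Atp6v0a1 (0.086) after volume depletion in Hoxb7Cre, for Atp6v1g1 in the driver difference of ischemia (-0.039), for Atp6v0d1 in volume depletion against ischemia (-0.020), and for the ratios of subunit B after volume depletion (0.20) and a after ischemia (0.31) in Hoxb7Cre and G after ischemia in Atp6v1b1Cre (-0.12). Atp6v1b2 after ischemia in Atp6v1b1Cre was 0.26 with all 69 libraries (adjusted p = 0.0486, edgeR). Of the 49 calls DESeq2 kept 48, no filter on low counts 48, a stricter filter 48 and mice of 5.5 months alone 24 of 25. Other choices of samples kept fewer. All 69 libraries kept 34 of 49, females only 24 of 45 and the 43 libraries of both sexes 9 of 24. The 25 males kept 18 of 24, and males only kept 16 of 21. Groups of 3 or 4 libraries limit the injury comparisons.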
